A study of Mus musculus with 208 samples.

Results

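The morphine by LPS interaction in the striatum asks whether perinatal morphine alters the adult neuronal transcript response to lipopolysaccharide (LPS), a bacterial cell wall component that triggers an acute innate immune reaction. For each gene it is the LPS response after morphine minus the LPS response after saline, (MOR-LPS minus MOR-SAL) minus (SAL-LPS minus SAL-SAL), on the log2 scale. Genes with a mean of at least 1 CPM (counts scaled to the library total) over the 54 striatal libraries were described, which kept 14195 of the 46403 genes in the count table. All 14195 were among the 23426 genes tested. Gm11376, at a mean of 1.001 CPM, lay just inside that limit, and Hey2, at 0.9999 CPM, just outside.

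The striatum is the main input nucleus of the basal ganglia, and most of its neurons are GABAergic medium spiny neurons. They are rich in opioid and dopamine receptors, which signal through cAMP, and so form a principal site of opioid action. Systemic LPS raises circulating cytokines and glucocorticoids, which reach the brain within hours. Astrocytes and microglia respond to these signals with acute phase and complement genes.

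C57BL/6NTac dams received saline or morphine (10 mg/kg/day) by minipump, and their pups, raised by drug-naive foster mothers, were injected with saline or morphine (10 mg/kg per injection) from postnatal day 1 to 14. As adults they were given saline or LPS, and tissue was taken 2 h later as bilateral 2 mm punches, from which about 5000 NeuN+ (neuronal) nuclei were sorted per library. The groups were SAL-SAL (saline, then saline) with 13 libraries, MOR-SAL with 8, SAL-LPS with 15 and MOR-LPS with 18. They came from 27 females and 27 males of 18 litters. Among these libraries, each litter held 1 sex and 1 exposure. Total counts ran from 5954700 to 92945090 per library, with a median of 10849923.5. In a pool of sorted nuclei, fewer nuclei of a type and less RNA per nucleus cannot be told apart.

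Several libraries stood apart from the rest. Markers of astrocytes, a glial type that the NeuN gate should remove, summed to 98.4 to 565 CPM in SAL-SAL, 123 to 491 in MOR-SAL and 127 to 514 in SAL-LPS. In MOR-LPS they ran from 108 to 1238 CPM, and 6 MOR-LPS libraries lay above every library of the other conditions. In 4 other libraries (2 SAL-SAL, 1 MOR-SAL and 1 SAL-LPS), mitochondrial transcripts passed 2% of the counts or ribosomal-repeat-like transcripts passed 20%. The medium spiny neuron markers were present in each group, with medians between 4264 and 5186 CPM, but ranged from 860 to 11810 CPM over single libraries. Each library's Y-linked transcripts matched its labelled sex.

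No gene of the 14195 passed the interaction test at an adjusted p of 0.05 (edgeR's quasi-likelihood test with Benjamini-Hochberg adjustment), so the percentage called was 0. The smallest adjusted p among them was 0.0585. Without MOR-SAL 17-2, 46 genes were called, and without litter 17, 60 were. At an unadjusted p under 0.05 there were 1817 genes (12.8%), with 1131 higher (7.97%) and 686 lower (4.83%) after morphine. This split was 2472 higher and 142 lower when scaled by library size alone, 3120 and 132 with limma on the deposited CPM as log2(CPM + 1), 1000 and 894 with edgeR's filterByExpr, and 658 and 563 with litter as a replicate block. DESeq2 run on the same counts called 107 interaction genes, 96 of them higher. On simulated counts of genes of this level, DESeq2 recovered more of the changed genes than edgeR and also made more false calls. For exposure without LPS (MOR-SAL against SAL-SAL), edgeR and DESeq2 each called 0 genes, and 7.82% had an unadjusted p under 0.05 with edgeR. For exposure with LPS (MOR-LPS against SAL-LPS), edgeR called 0 genes (8.42% at an unadjusted p under 0.05), and DESeq2 called 93, with 91 higher and 2 lower. The median standard error of the interaction was 0.341 on the log2 scale, and for 47.2% of the genes the 95% interval lay within 1 log2 unit of 0 on either side. For the other genes the interval reached past a 2-fold interaction.

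2 genes under 1 CPM, Adh1 and Gm14271, did pass the test (0.00854% of the 23426 tested). Both were at 0 in all 13 SAL-SAL libraries and were detected in 1 of 8 MOR-SAL libraries. On simulated counts the same test made false calls mainly among genes with 1 group wholly at 0, and both genes are of that kind. They are therefore not described as interactions.

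The 10 genes with the smallest p and a higher LPS response after morphine had interactions from 0.95 (Amot) to 4.74 (Itgam), none past edgeR's adjusted test and all 10 past that of DESeq2. Serpina3n, a secreted protease inhibitor and a marker of reactive astrocytes, had a lowest, median and highest level of 0.400, 3.79 and 8.49 CPM in SAL-SAL. The same values were 0, 0.719 and 2.48 CPM in MOR-SAL, 1.27, 5.23 and 29.9 CPM in SAL-LPS, and 2.55, 12.5 and 102 CPM in MOR-LPS. MOR-LPS thus lay above every MOR-SAL library, while SAL-LPS and SAL-SAL overlapped. Its interaction was 3.55 ± 0.82 (SE; adjusted p = 0.0585). Itgam, the microglial and myeloid integrin CD11b, was at 0 in 5 of 8 MOR-SAL libraries and reached 20.6 CPM in MOR-LPS, with an interaction of 4.74 ± 1.14 (adjusted p = 0.0588).

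Amot, which encodes the junction protein angiomotin, had the tightest estimate of the 10. Its lowest, median and highest levels were 6.25, 9.78 and 13.9 CPM in SAL-SAL, 4.70, 6.60 and 8.49 in MOR-SAL, 6.12, 9.29 and 11.2 in SAL-LPS, and 8.07, 10.5 and 16.6 in MOR-LPS. MOR-SAL had the lowest median and overlapped with each other group. The interaction was 0.95 ± 0.20, with a 95% interval from 0.55 to 1.36. Ston2, an adaptor for synaptic vesicle endocytosis, had medians of 15.3 CPM in SAL-SAL, 10.9 in MOR-SAL, 10.4 in SAL-LPS and 19.0 in MOR-LPS, and an interaction of 2.07 ± 0.42. The other 6 were Gpd2, Adamts1, Synm, Tns3, Zeb2 and Rhog, with interactions from 1.33 (Gpd2) to 3.20 (Adamts1). Without litter 3 the Zeb2 interaction was 1.72 instead of 2.65. For all 10 the estimate of MOR-SAL against SAL-SAL was negative, and 7 of the 10 were called in the LPS response after morphine.

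**Figure D1:**
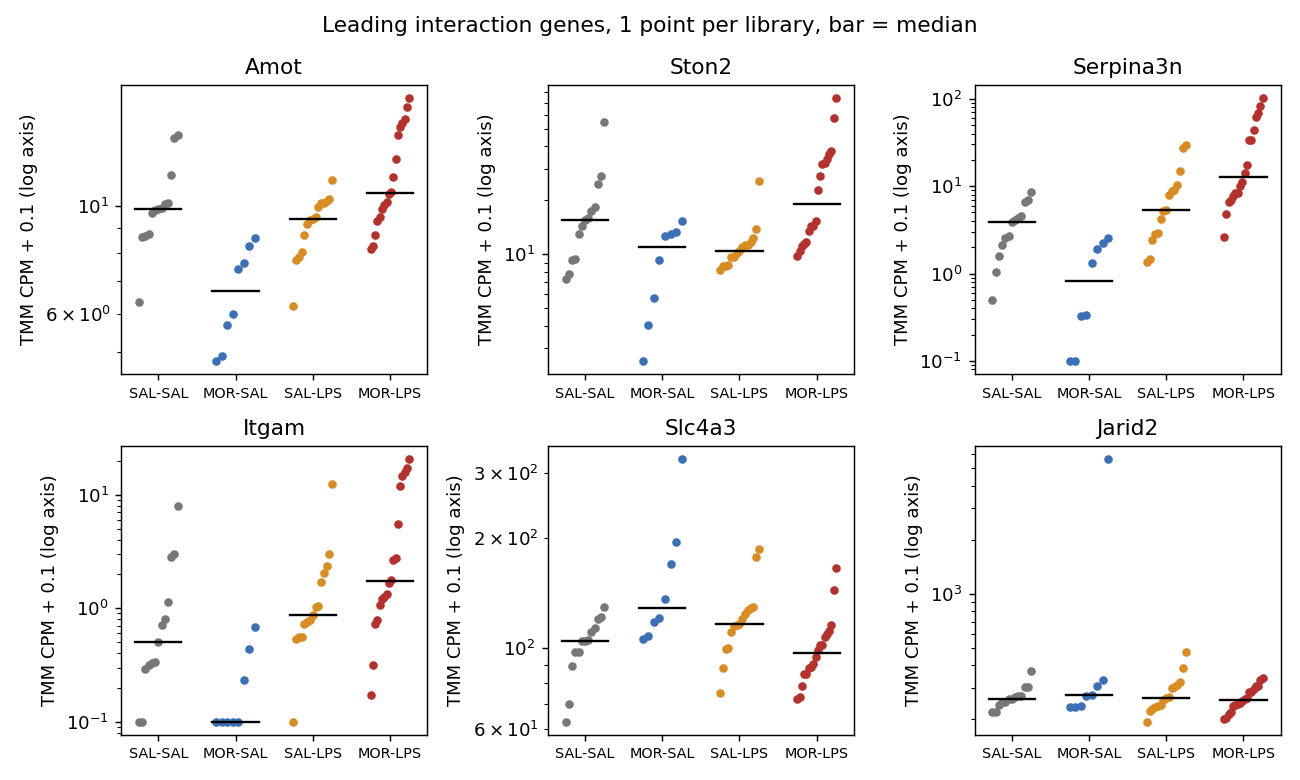
Level of 6 leading interaction genes in each of the 54 striatal libraries (TMM-normalized CPM plus 0.1, log axis), by condition, with a bar at the median. Amot, Serpina3n and Itgam have their lowest median in MOR-SAL, and 1 MOR-SAL library stands far above the others for Jarid2.

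The 10 genes with the smallest p and a lower LPS response after morphine had interactions from -0.64 (Atp8b2) to -1.79 (Tmtc2), none past edgeR's adjusted test. DESeq2 called 8 of them and gave no adjusted p for Jarid2 and Tmtc2. Slc4a3, an anion exchanger of neurons and heart, had a lowest, median and highest level of 62.7, 104 and 129 CPM in SAL-SAL, 106, 128 and 328 in MOR-SAL, 75.1, 116 and 187 in SAL-LPS, and 72.4, 96.5 and 165 in MOR-LPS. The groups overlapped, and the interaction was -0.91 ± 0.21 (adjusted p = 0.0585). Ago4, an Argonaute protein that binds small RNAs, had an interaction of -1.03 ± 0.26, and Rap1gap, which switches off the small GTPase Rap1, one of -1.06 ± 0.30. Map3k10, Plec, Atp8b2, Slc25a37 and Zfr2 lay between -0.64 (Atp8b2) and -0.96 (Plec).

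Jarid2 and Tmtc2, also among these 10, rested on 1 library. Jarid2, a cofactor of the Polycomb repressive complex, read 5640 CPM in MOR-SAL 15-0, and the next MOR-SAL library read 332. Tmtc2 read 4240 CPM in the same library and 158 in the next. Without MOR-SAL 15-0, the interaction of Jarid2 went from -1.69 to -0.11, and that of Tmtc2 from -1.79 to 0.05. That library also had the highest share of ribosomal-repeat-like transcripts, 25.9% of its counts against a median of 5.70%.

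The LPS response itself was called in different numbers of genes in the 2 exposures, which share no library. After saline, 0 of the 14195 genes passed the adjusted test (1244 at an unadjusted p under 0.05, or 8.76%, and 19 by DESeq2). After morphine, 214 passed (1.51%), 142 higher (1%) and 72 lower (0.507%), and 15.6% had an unadjusted p under 0.05. DESeq2 called 573 after morphine. The edgeR count after morphine was 58 without MOR-SAL 12-1, 325 without MOR-SAL 17-2 and 7 without litter 15, and it was 130 in females alone and 0 in males alone. The difference in counts between exposures is not a test of the interaction, in which edgeR called 0 genes and DESeq2 107. With litter as a replicate block, which compares littermates, 26 genes passed after morphine. Only 5 of 10 morphine litters and 7 of 8 saline litters held both challenges, so the other litters add nothing to that comparison. Without the 6 MOR-LPS libraries with the highest astrocyte markers, 6 passed.

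The called genes were chosen by their response after morphine, which favours larger values there than after saline. Of the 142 genes called higher after morphine, the median LPS response was 1.92 after morphine and 0.157 after saline, and 98 had the same sign after saline. Of the 72 called lower, the medians were -0.80 and -0.07, and 49 had the same sign. Over all 14195 genes the medians were 0.04 and -0.003, and 46.7% shared the sign. C4b, a complement component, rose by 5.09 ± 0.61 after morphine (adjusted p = 0.000132), and its response after saline was 2.26 ± 0.48 (unadjusted p = 3.7e-05). The C4b interaction was 2.84 ± 0.78 (edgeR's adjusted p = 0.0773, and 0.0347 with DESeq2), and 0.28 (unadjusted p = 0.57) with glial marker covariates. It was 5.96 in females alone and 0.82 in males alone, and the test of that difference had an adjusted p of 0.273. Its medians were 1.68 CPM in SAL-SAL, 0.860 in MOR-SAL, 8.80 in SAL-LPS and 11.0 in MOR-LPS. Serpina3n rose by 4.72 ± 0.63 after morphine (adjusted p = 0.000744).

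**Figure D2:**
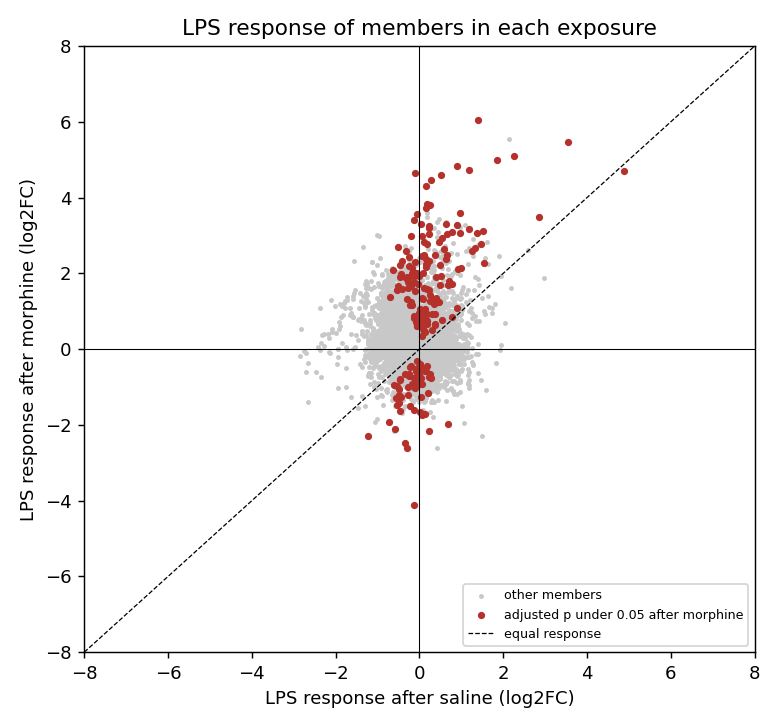
LPS response after saline (x axis, log2 fold change) against the LPS response after morphine (y axis), 1 point per gene of the 14195, with the dashed line marking equal responses. The 214 genes called after morphine (red) spread along the y axis, by which they were chosen, more than along the x axis.

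Genes with the smallest p for LPS after saline included some with near-equal responses in both exposures. Fkbp5, a glucocorticoid-induced cochaperone of the glucocorticoid receptor, had medians of 48.7 CPM in SAL-SAL, 63.5 in MOR-SAL, 83.6 in SAL-LPS and 103 in MOR-LPS. Its responses were 0.77 after saline and 0.84 after morphine, and its interaction of 0.07 had a 95% interval from -0.45 to 0.58. Nf2, the tumour suppressor merlin, responded by 0.54 and 0.78. For the sterol synthesis genes Msmo1 and Srebf2 the responses were -0.97 and -0.55 after saline, and -0.05 and -0.28 after morphine. The mitochondrial transcripts mt-Nd2 and mt-Nd6 had interactions of 2.69 ± 0.93 (adjusted p = 0.171) and 2.67 ± 0.98 (adjusted p = 0.203). Their highest SAL-SAL libraries read 267 and 83.3 CPM, and 2 SAL-SAL libraries passed the 2% mitochondrial limit. Without the 4 libraries high in mitochondrial or ribosomal-repeat-like transcripts, the interactions of mt-Nd2 and mt-Nd6 were 0.74 (unadjusted p = 0.374) and 0.76 (unadjusted p = 0.398). With litter as a replicate block they were 0.75 and 0.91, and without litter 4 they were 1.32 and 1.19.

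No member of the gene lists was called in the interaction by edgeR, and DESeq2 called Fam107a, Ifi27 and Gnai1, all higher. The medians of the lists stand beside 0.05 over all 14195 genes. Of all genes, 7.97% were higher and 4.83% lower at an unadjusted p under 0.05. Of 20 glucocorticoid-induced genes, 6 were higher and 1 lower at an unadjusted p under 0.05, and the median was 1.19. Fam107a, an actin-binding stress gene also expressed by astrocytes, had an interaction of 2.06 ± 0.51 (adjusted p = 0.0612), and Sgk1, a kinase induced by glucocorticoids, one of -0.66 ± 0.31. Of 27 listed interferon and antigen presentation genes, 10 passed the 1 CPM limit, to which high MOR-LPS values contribute, and among these 2 were higher and 0 lower, with a median of 0.93. The interferon-induced Ifi27 had an interaction of 2.63 ± 0.67. The 13 of 30 listed NF-kB and acute inflammatory genes that passed it had a median of 0.24, with 3 higher, and Stat3, which relays cytokine signals, had an interaction of 0.01 ± 0.29.

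Of 25 medium spiny neuron identity genes, 3 were lower and 0 higher, with a median of -0.62, and Pde10a, the cyclic nucleotide phosphodiesterase of these neurons, had an interaction of -1.18 ± 0.49. The 22 glutamate receptor genes had a median of -0.45, with 4 lower, among them Grm4 at -1.45 ± 0.43 (adjusted p = 0.0825). Of 31 opioid and cAMP signalling genes, 2 were higher and 2 lower, with a median of 0.13. Gnai1, an inhibitory G protein subunit that couples opioid receptors to adenylyl cyclase, had an interaction of 0.92 ± 0.25 (adjusted p = 0.0657). The 17 core clock genes had a median of -0.19 (0.08 with library size alone), with 4 lower, and the 14 GABA receptor genes one of -0.15 (0.12 with library size alone). Immediate early genes (21) and heat shock genes (16) had medians of 0.22 and 0.62 with 0 members past the unadjusted limit, and the immediate early median was -0.03 with litter as a replicate block. The 19 ribosomal protein genes had a median of 1.09 with 5 higher, the 19 oxidative phosphorylation genes one of 0.36 with 0, and the 17 cytokine receptor genes one of 0.43 with 3 higher.

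**Figure D3:**
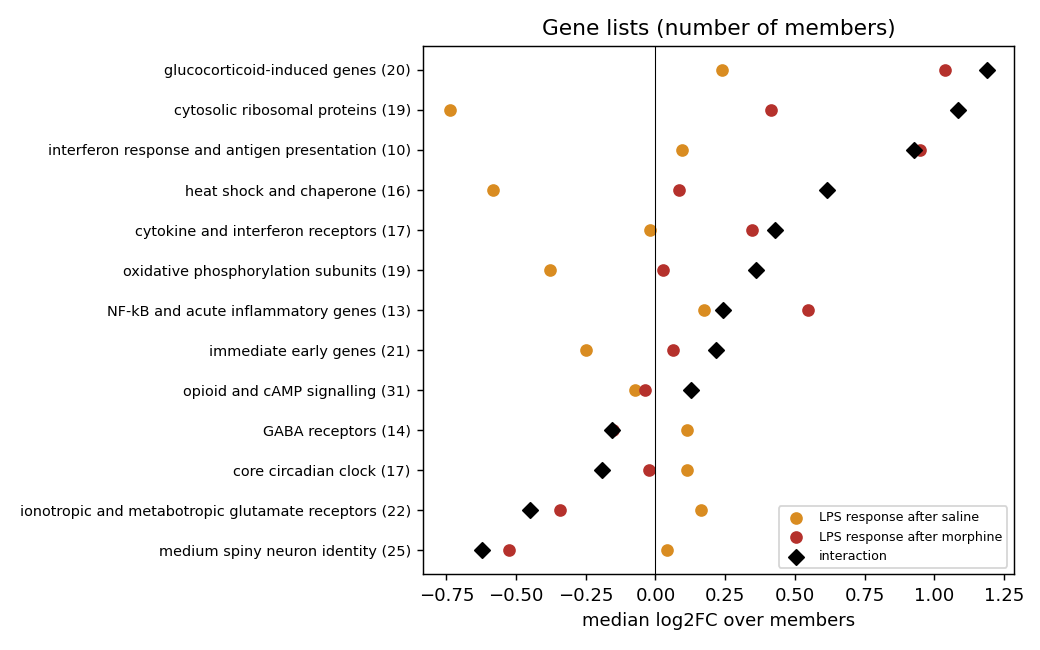
Median log2 fold change over the members of each gene list, for the LPS response after saline, the LPS response after morphine and the interaction (number of members in brackets). Glucocorticoid-induced genes have the highest interaction median, 1.19, and medium spiny neuron identity genes the lowest, -0.62.

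Glial markers moved with these results. At an unadjusted p under 0.05 the interaction was higher for 8 of 9 astrocyte markers (median 2.17), 7 of 8 microglial markers (2.53) and 8 of 10 oligodendrocyte markers (2.00). Of the astrocyte markers, Aqp4, the water channel of astrocyte endfeet, had an interaction of 2.71, and Slc1a3, a glutamate transporter, one of 2.00. Neither was called by edgeR, while DESeq2 called Aqp4, Slc1a3, Gjb6 and the microglial C1qa. Median summed astrocyte markers were 267 CPM in SAL-SAL, 203 in MOR-SAL, 245 in SAL-LPS and 367 in MOR-LPS. Microglial markers had medians of 22.6, 16.8, 26.0 and 41.7 CPM in the same order. Gfap and P2ry12, defining markers of astrocytes and microglia, were listed at 0 in all 54 libraries, but so was Tubb3, a tubulin of all neurons, so a listed 0 does not show absence. The 5 oligodendrocyte precursor markers had a median interaction of 1.69 with 3 higher, and of 4 choroid plexus markers 1 was higher. No marker of cortical excitatory neurons (8, median 1.20) or striatal interneurons (9, median 0.03) passed the unadjusted limit, and of 5 thalamic markers 1 was lower. The cortical median turned to -0.43 in females alone and the interneuron median to -0.32 in males alone. The thalamic median turned from -1.05 to 0.18 with a litter correlation. The 6 pan-neuronal markers had a median of 0.17 with 1 lower, and of 9 endothelial markers only Pecam1 reached 1 CPM.

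**Figure D4:**
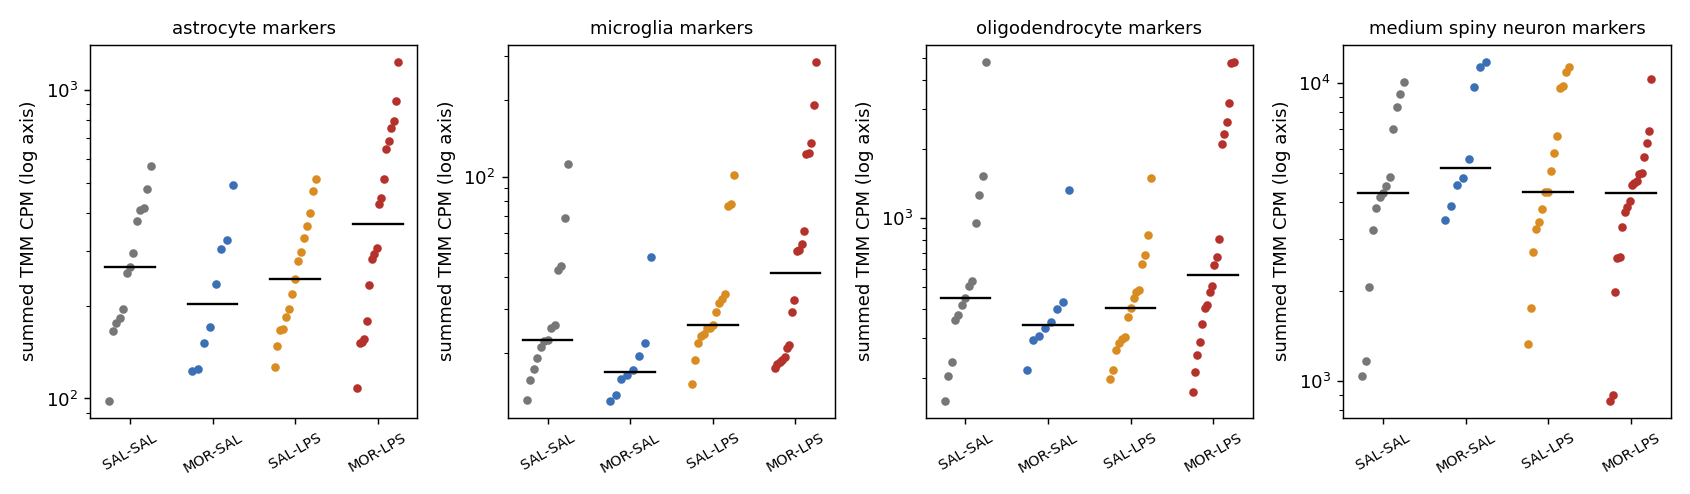
Summed level of astrocyte, microglial, oligodendrocyte and medium spiny neuron markers in each library (TMM-normalized CPM, log axis), with a bar at the median of each condition. The highest astrocyte sums, up to 1238 CPM, are all in MOR-LPS libraries.

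With the astrocyte, microglial and oligodendrocyte marker levels as covariates, a fit added after the data were seen, 365 genes had an unadjusted interaction p under 0.05 instead of 1817, and 0 were called. The median of the glucocorticoid-induced list went from 1.19 to 0.09, and that of the medium spiny neuron list from -0.62 to 0.13. Interferon genes went from 0.93 to 0.11, glutamate receptors from -0.45 to 0.03, ribosomal proteins from 1.09 to 0.51, NF-kB genes from 0.24 to -0.13, cytokine receptors from 0.43 to -0.15, and GABA receptors from -0.15 to 0.09. Serpina3n went from 3.55 to 0.98 (unadjusted p = 0.13) and Zeb2 from 2.65 to 0.75. Amot went from 0.95 to 0.86 (unadjusted p = 0.00048). These covariates can also take up glial genes that LPS itself changes. In the same fit, 73 genes were called in the LPS response after saline, and 10 in that after morphine. Without the 6 MOR-LPS libraries, 1091 genes had an unadjusted interaction p under 0.05, and this removal lowers glial genes in MOR-LPS by its construction. The NF-kB median was then -0.21.

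**Figure D5:**
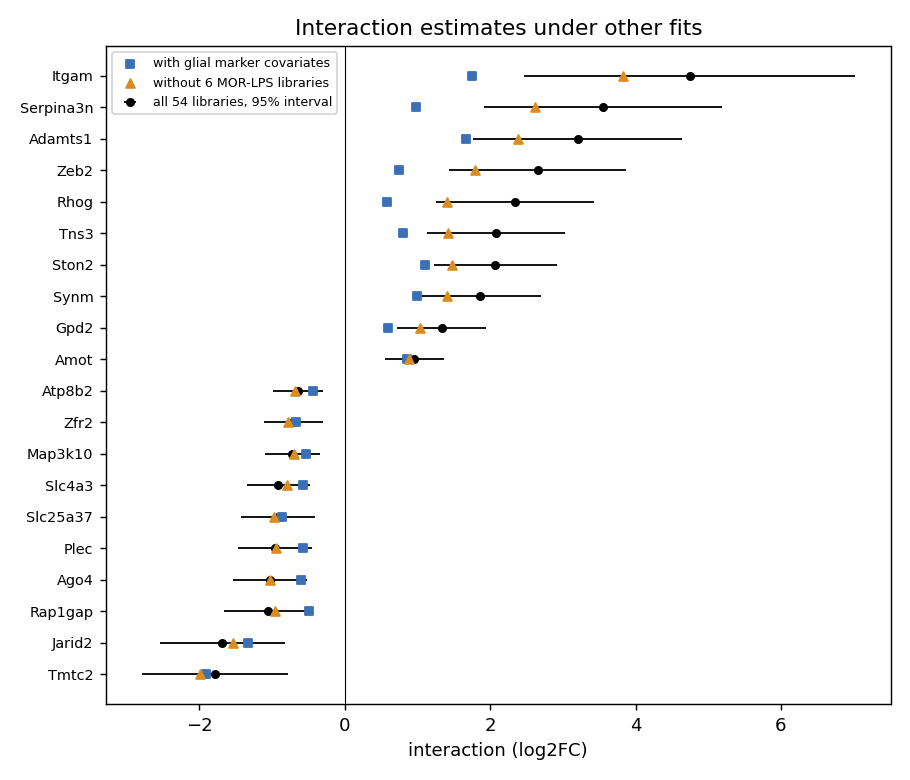
Interaction (log2 fold change, x axis) of the 20 leading genes in all 54 libraries with the 95% interval (black), with glial marker covariates (blue) and without 6 MOR-LPS libraries (orange). All 20 keep their sign, and the 10 higher genes lie nearer 0 in both other fits.

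The interaction was not shown to differ between the sexes. 0 of the 14195 genes passed the test of that difference (688 at an unadjusted p under 0.05, or 4.85%, and 13 by DESeq2). Fitted alone, females had 2364 genes at an unadjusted interaction p under 0.05 (1567 higher, 797 lower), and males 380 (274 higher, 106 lower). These counts are not a test of the difference. The same contrast was fitted separately in the hippocampus and the prefrontal cortex (PFC), and not in the hypothalamus. It called 519 of 22076 tested genes in the hippocampus and 387 of 21729 in the PFC. Most of these lay under a mean of 1 CPM. On simulated striatal counts the test made false calls at that level. The other regions were not simulated, and whether their calls are false was not tested. At a mean of at least 1 CPM, 27 of 14123 genes were called in the hippocampus and 32 of 14176 in the PFC. Of the 20 leading striatal genes, 12 kept their sign in the hippocampus, with 0 called, and 14 in the PFC, with 1 called. The gene called in the PFC was Itgam (6.36 ± 1.52, adjusted p = 0.0321). Many animals gave more than 1 region, and the regions were not compared in 1 model.

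RefSeq promoters (GRCm38.p6, 250 bases before to 50 after the start) were matched for 24 of the 32 named leading and LPS response genes. 3 motifs were searched on both strands. A STAT motif, TTCNNNGAA, was in 2 of these 24 promoters and in 8.47% of 27025 promoters, so the share among the named genes was near the background. The palindromic glucocorticoid response element was in 0 of the 24 (0.0037% of all), and the NF-kB consensus motif also in 0 (0.144%). In GENCODE M21, Ston2 spans 91633009 to 91788387 on chromosome 12 and Amot 145446425 to 145505181 on chromosome X, and their exons overlap no other gene. Exons of Gpd2, Synm, Zeb2, Map3k10, Slc25a37, Tmtc2, Ddb2 and mt-Nd6 overlap a gene on the opposite strand, and those of Itgam, Plec, Zeb2 and mt-Nd2 a gene on the same strand (Gm49368, Parp10, Mir5129 and mt-Tw). Reads there could be split between the genes, and the strand setting of the counting is not given in the sources used here.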

How the data were processed

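Nuclear RNA of NeuN+ striatal nuclei was sequenced in 54 libraries. The authors trimmed reads with Trim Galore 0.6.7, aligned them to mm10 and counted them per gene with STAR 2.7.10a, and checked the counts with HTSeq 0.12.4, per the study's methods and the submitters' processing notes. The deposited counts are whole numbers without normalization. The deposited CPM values, which the authors scaled to the library total after dropping 37 mitochondrial genes, were used only for the limma alternatives and for a check of membership, in which 14185 genes passed by both scales and 14203 by either.

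Genes with a total count above 10 were tested with edgeR 4.0.16 (TMM scaling, quasi-likelihood test) in R 4.3.3, with the 4 conditions and sex as terms, and p-values were adjusted over all 23426 genes by the Benjamini-Hochberg method. SEs came from the fitted model. Levels are TMM-normalized CPM. DESeq2 1.42.0 and limma 3.58.1 were alternatives. The members, lists and tests were chosen with earlier results of these data known. Named genes were the 10 with the smallest interaction p in each direction, the 6 with the smallest p in each direction for LPS after saline, and for each list the 2 highest and the 2 with the smallest p, with markers for checks. Adh1, Gm14271 and the comparisons without single libraries were added after values were seen.

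The animal was the replicate, and p-values measure the spread between animals, some of them littermates. Replicate numbers give litter and animal, per the study's sample table. Over all its animals the paper counts more litters than the 18 numbered here, and this difference was not resolved. Littermates given different challenges deviated together only weakly (mean correlation 0.0764 over 38 pairs, from -0.608 to 0.744, against -0.0091 for 130 pairs of other litters). No pair of libraries was identical. Scripts were tested on simulated data.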

Additional observations from a re-analysis of the deposited data

Results flagged for a closer look

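Single MOR-SAL libraries lay far from the other 7 in 19 of 57 gene or list levels examined. Chance flags about 1 in 20 independent groups, but that rate does not apply here, since many of the genes were chosen by an interaction that these libraries enter, the levels share the same libraries, and Saa3 and Cd244 were at 0 in the other 7. MOR-SAL 15-0 was highest for Slc4a3 (328 CPM), Jarid2 (5640), Plec (405), Tmtc2 (4240) and Saa3 (0.98), and for the summed endothelial (7.11) and cortical excitatory neuron (743) markers. MOR-SAL 17-2 was highest for Adamts1 (3.2 CPM) and for the summed heat shock (3890), oxidative phosphorylation (2190), ribosomal protein (1080), oligodendrocyte (1330), oligodendrocyte precursor (35), microglial (48.2), choroid plexus (164) and striatal interneuron (563) genes. It was lowest for the summed glutamate (8150) and GABA (3140) receptor genes. MOR-SAL 17-4 was the 1 library of the group in which Cd244 was detected (0.134 CPM). Their part in the interaction was not tested beyond leaving each out.

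The interaction test called 2 genes under 1 CPM, Adh1 and Gm14271, each with SAL-SAL wholly at 0.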

How the results depend on the processing

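The count of 0 called interaction genes was 107 with DESeq2, 89 with library size alone, 37 without the sex term, 1 and 7 with limma on log2(CPM + 1) and log2(CPM + 0.1), and 5 with a medium spiny neuron covariate. Library size alone moved the median interaction of all members from 0.05 to 0.31, and all 89 of its calls were higher. Leaving out MOR-SAL replicates gave 0 to 46 (46 without 17-2, 4 without 8-0), and leaving out litters 0 to 60 (60 without litter 17, 47 without 6, 5 without 10, 3 without 8). With litter as a replicate block, 0 were called. For LPS after saline the count of 0 was 19 with DESeq2, 1 with the replicate block, 73 with glial covariates, and 2 both without the high-astrocyte libraries and with the medium spiny neuron covariate. Leave-outs gave 0 to 1 (1 without litter 14 or 16). For LPS after morphine the count of 214 was 573 with DESeq2, 26 with the replicate block, 108 with a litter correlation, 130 in females, 0 in males, 604 and 775 with limma, 10 with glial covariates, 6 without the high-astrocyte libraries and 58 without the 4 libraries high in mitochondrial or ribosomal-repeat-like transcripts. Males alone had 728 genes at an unadjusted p under 0.05. MOR-SAL leave-outs gave 58 to 325 (58 without 12-1, 59 without 15-0, 84 without 14-1, 114 without 17-4, 135 without 8-0, 325 without 17-2). Litter leave-outs gave 7 to 299 (7 without litter 15, 26 without 14, 65 without 16, 77 without 12, 123 without 1, 124 without 7). The sex difference gave 13 with DESeq2. Of the leading and LPS response genes and 9 other list or marker genes, signs turned for Tmtc2 without the 4 libraries (0.16) and without MOR-SAL 15-0 (0.046), for Fkbp5 in males (-0.50), without the high-astrocyte libraries (-0.21) and without the 4 libraries (-0.034), litter 9 (-0.014) or litter 15 (-0.069), for Cd244 in males (-2.65), and for Saa3 with library size alone (0.072), in males (1.93), with the bias-adjusted fit (0.61), with limma (0.45 and 0.67) and without the 4 libraries (2.98), MOR-SAL 15-0 (2.90) or litters 5, 6, 9 or 15 (0.043 to 2.90). Stat3, near 0 in the reported fit, was -0.029 with filterByExpr, -0.0055 with no count filter, -0.16 with the replicate block, -0.097 with a litter correlation, -0.26 with glial covariates, -0.28 without the high-astrocyte libraries and -0.077 with the medium spiny neuron covariate, and leaving out single litters or MOR-SAL libraries took it as low as -0.086. The covariate fits and these library removals were chosen after seeing the data. No library was under 0.5 of the median depth or went against its labelled sex, so those alternatives were not run. The causes were not tested.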
